A study of Mus musculus with 7 samples.

Results

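Enteroendocrine cells are the hormone-secreting cells of the gut epithelium, and 10 of their genes were followed in the ileum of mice on a normal or a low cystine diet. The genes were the hormone genes Gcg, Pyy, Nts, Gip, Cck and Sct, the serotonin synthesis gene Tph1, the granule protein genes Chga and Chgb and the transcription factor gene Neurod1. They were taken by gene name from the deposited table, where each name had 1 row, and are 10 of the 38293 genes listed. The study asked whether less cystine in the diet changes gene expression in the small intestine. RNA was taken from scrapings of the ileum, made of the epithelial lining and the lamina propria and leaving out the muscle layer. There were 4 libraries on the normal cystine diet (normal cys: X17SI4, X32SI4, SI9 and X1SI4) and 3 on the low cystine diet (low cys: X23SI4, X26SI4 and X10SI4). All were male, individually housed C57BL/6NRJ mice aged 8 weeks. They had 1 week of acclimatization on the high fat control diet, then 2 weeks on the normal or low cys diet. Both were purified AIN93G high fat diets, low in calcium and with 40% of their energy from fat. The normal cys diet held 0.38% cystine and the low cys diet 0.08%, with alanine in place of the cystine left out. The mice were fasted for 4 hours before sacrifice, in both groups.

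Enteroendocrine cells are scattered singly among enterocytes and release peptides from dense-core granules when nutrients or microbial products reach them. L cells make proglucagon and peptide YY, N cells neurotensin, K cells glucose-dependent insulinotropic polypeptide, I cells cholecystokinin, S cells secretin and enterochromaffin cells serotonin, and single cells often hold several of these at once. K and I cells are known mainly from the proximal small intestine, and L and N cells mainly from the ileum and colon. The hormones are made as longer precursors that convertases cut, mostly at pairs of basic residues.

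The 7 libraries held between 14888760 and 22412703 counts. Of the genes listed, 14869 passed a filter on low counts and were tested, among them all 10 enteroendocrine genes. Levels are given as CPM (counts relative to the TMM-scaled library size), differences as log2 fold changes of low cys against normal cys from edgeR's quasi-likelihood test, and adjusted p-values were taken over all genes tested (Benjamini-Hochberg). In this test 0 of 14869 genes (0%) had an adjusted p under 0.05, as against 817 (5.49%) with an unadjusted p under 0.05, and in DESeq2 16 genes (0.108%) had an adjusted p under 0.05. In bulk tissue, fewer cells of a type and less RNA per cell cannot be told apart.

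The glucagon gene Gcg was higher and the Gip gene lower on the low cys diet, and both were without overlap between the diets. None of the 10 enteroendocrine genes passed the test after adjustment over all genes, with edgeR, DESeq2 or limma-voom. At an unadjusted p under 0.05 there were 2 of 10 genes with each of the 3 tools, against a background of 5.49% of all genes with edgeR, 6.33% with DESeq2 and 6.29% with limma-voom. The genes were Gcg and Gip in each tool. In edgeR, 1 of 10 was thus higher in low cys (background 2.66%) and 1 of 10 lower (background 2.83%). The diets were without overlap in the same 2 of 10 genes, against 6.83% of all genes tested, of which 3.32% had low cys above and 3.51% low cys below. Of the other 8 genes, 6 had a lower and 2 a higher estimate on the low cys diet, and each had an interval that included no difference.

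**Figure D1:**
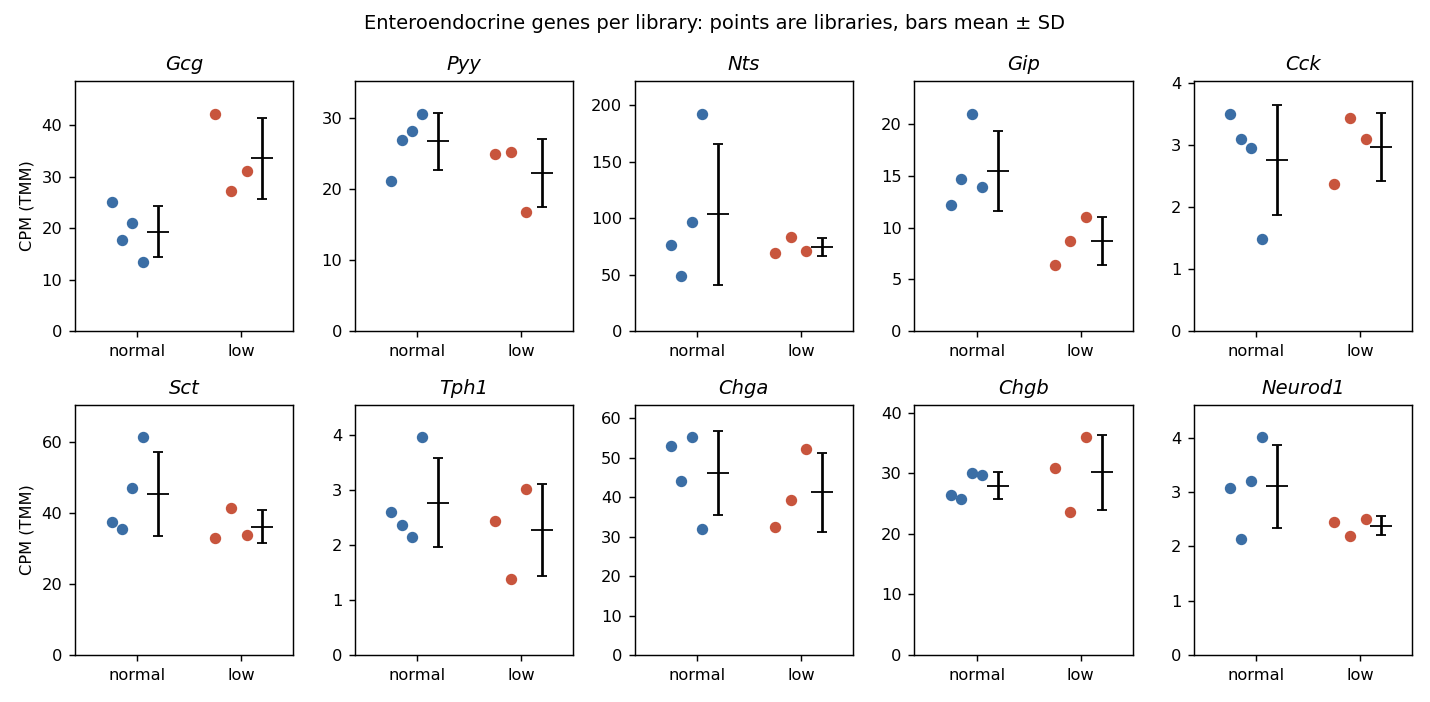
CPM of each gene (vertical axis, starting at 0) in the 4 normal cys (blue) and 3 low cys (red) libraries, each point a library and each bar the mean ± SD. Gcg lies between 27.2 and 42.2 CPM in low cys and between 13.4 and 25.1 in normal cys, Gip between 6.37 and 11 against 12.2 and 21, and the groups overlap in the other 8 genes.

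Gcg (ENSMUSG00000000394, chromosome 2 of GRCm38 from 62474530 to 62483650, minus strand) encodes proglucagon, from which the L cells of the gut cut glucagon-like peptides 1 and 2, and pancreatic alpha cells glucagon. Part of its coding sequence in GENCODE M21, bases 136 to 435 counted from the A of the start codon, is printed here because Gcg had the largest positive estimate of the 10. Pairs of codons for basic residues are in capitals, since precursors of this kind are mostly cut at such pairs. A marked pair is not always a cut site, a cut can also fall outside the marked pairs, and cutting was not measured.
Gcg coding sequence, bases 136 to 435: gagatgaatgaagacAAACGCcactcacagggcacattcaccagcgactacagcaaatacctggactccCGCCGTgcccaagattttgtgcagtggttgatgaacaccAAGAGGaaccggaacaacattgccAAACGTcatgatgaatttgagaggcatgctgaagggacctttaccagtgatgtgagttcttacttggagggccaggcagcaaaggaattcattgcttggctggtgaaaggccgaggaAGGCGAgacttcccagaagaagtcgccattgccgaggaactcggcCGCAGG
The stretch holds 6 of the 7 such pairs in the 180 codons. Gcg had 25.1, 17.8, 20.9 and 13.4 CPM in normal cys libraries X17SI4, X32SI4, SI9 and X1SI4, and 42.2, 27.2 and 31.1 CPM in low cys libraries X23SI4, X26SI4 and X10SI4. The diets did not overlap, with all 3 low cys libraries at higher values, and X23SI4 was the highest of all. The mean was 33.5 ± 7.78 CPM (SD, n = 3) against 19.3 ± 4.97 (SD, n = 4), a ratio of 1.74. Its log2 fold change was 0.80 (standard error 0.226, 95% interval 0.28 to 1.31), with an unadjusted p of 0.00647 and an adjusted p of 0.794 in edgeR. In the two-sided exact permutation test of the mean CPM, p was 0.0571, the smallest that 4 and 3 libraries allow. Without X23SI4 the log2 fold change was 0.61 (edgeR, unadjusted p = 0.0367). The raw counts behind these values ran from 280 to 1035 per library.

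Pyy (ENSMUSG00000017311, chromosome 11 from 102106676 to 102107832, minus strand) encodes peptide YY, which L cells store beside the proglucagon peptides and which slows gut transit. It had 21.2, 26.9, 28.1 and 30.6 CPM in the normal cys libraries and 25, 25.2 and 16.8 CPM in the low cys libraries, in the order of libraries given for Gcg. The diets overlapped, and the lowest library of all was low cys X10SI4, which had the second highest Gcg. The log2 fold change of Pyy was -0.26 (standard error 0.185, 95% interval -0.68 to 0.16), with an adjusted p of 0.798 in edgeR (exact permutation test, two-sided, p = 0.286). The upper end of the Pyy interval lies below the lower end of the Gcg interval, and the difference between these 2 genes was not tested.

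Nts (ENSMUSG00000019890, chromosome 10 from 102481760 to 102490418, minus strand) encodes neurotensin and neuromedin N, peptides of ileal N cells that rise after fat intake. It had 76.3, 48.5, 97.0 and 192.6 CPM in normal cys and 69.0, 83.4 and 71.0 CPM in low cys. Normal cys library X1SI4 was 3.97 times the lowest library, X32SI4, and the low cys libraries all lay within the normal cys range. The coefficient of variation was 60.4% in normal cys and 10.5% in low cys. In edgeR the log2 fold change was -0.48 (standard error 0.406, 95% interval -1.41 to 0.45, adjusted p = 0.804 in edgeR), and without X1SI4 it was 0.01 (unadjusted p = 0.967), so that its sign rested on this library.

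Gip (ENSMUSG00000014351, chromosome 11 from 96024545 to 96030831, plus strand) encodes the precursor of glucose-dependent insulinotropic polypeptide, an incretin of K cells that raises insulin secretion after a meal. Bases 1 to 300 of its coding sequence are printed as the counterpart of Gcg, since Gip had the largest negative estimate, again with pairs of codons for basic residues in capitals.
Gip coding sequence, bases 1 to 300: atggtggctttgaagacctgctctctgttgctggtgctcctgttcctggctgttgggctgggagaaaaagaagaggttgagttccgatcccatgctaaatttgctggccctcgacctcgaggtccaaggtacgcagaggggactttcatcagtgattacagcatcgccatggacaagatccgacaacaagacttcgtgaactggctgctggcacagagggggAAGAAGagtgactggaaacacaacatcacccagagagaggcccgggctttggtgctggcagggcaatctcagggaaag
The whole sequence holds 1 such pair in 144 codons, and the Gip hormone is known to be cut out at single arginines. Gip had 12.2, 14.7, 21 and 13.9 CPM in normal cys libraries X17SI4, X32SI4, SI9 and X1SI4, and 6.37, 8.69 and 11 CPM in low cys libraries X23SI4, X26SI4 and X10SI4. All 3 low cys libraries had lower values than the 4 normal cys libraries, with X10SI4 and X17SI4 nearest to each other. The mean was 8.69 ± 2.33 CPM (SD, n = 3) against 15.5 ± 3.86 (SD, n = 4), a ratio of 0.562. For Gip the log2 fold change was -0.83 (standard error 0.248, 95% interval -1.39 to -0.27), with an unadjusted p of 0.00857 and an adjusted p of 0.794 in edgeR. The exact permutation test again gave its smallest two-sided p of 0.0571. Without X23SI4 the log2 fold change was -0.63 (edgeR, unadjusted p = 0.0413). Raw counts ran from 139 to 400.

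**Figure D2:**
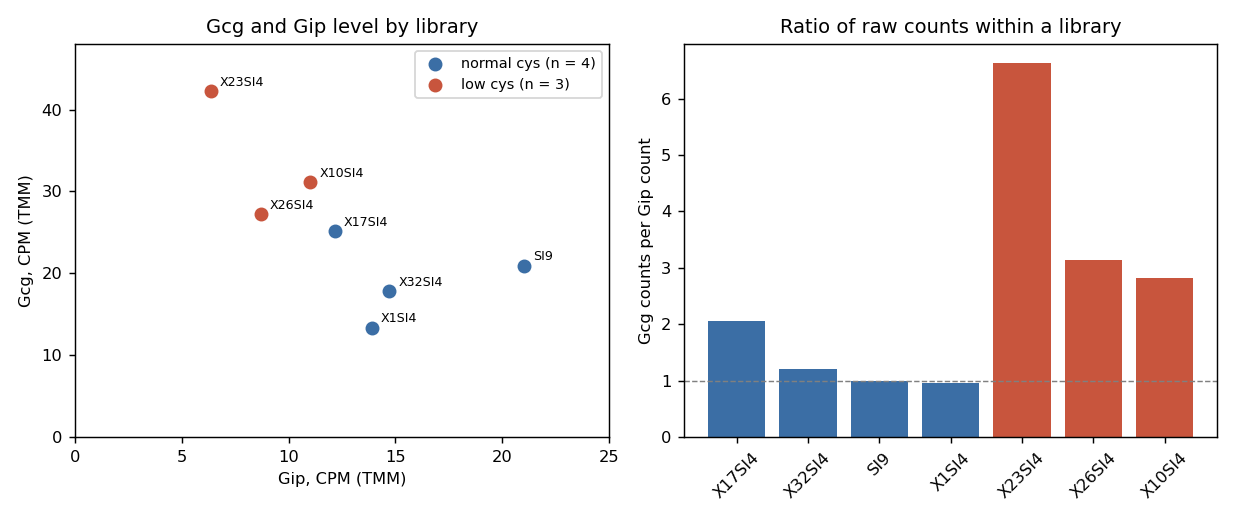
Left, Gcg against Gip in CPM, each point a library, normal cys in blue and low cys in red; right, the number of Gcg counts per Gip count in each library, as bars from 0 with a dashed line at 1. The 3 low cys libraries sit at higher Gcg and lower Gip than the 4 normal cys libraries, with ratios from 2.83 to 6.63 against 0.962 to 2.06.

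The ratio of Gcg to Gip counts within a library does not depend on how libraries are scaled. It was 2.06, 1.21, 0.995 and 0.962 in the normal cys libraries and 6.63, 3.14 and 2.83 in the low cys libraries, in the order used above. All low cys libraries exceeded all normal cys libraries in this ratio. That follows from the separation of both genes in CPM and is not further evidence. The ratio was formed after the values of both genes were seen and carries no test. Per 100 counts of Chga, a granule gene that need not be equal in all enteroendocrine cell types, there were 41.9 ± 4.00 counts of Gcg (SD, n = 4) in normal cys. In low cys there were 86.4 ± 38.2 (SD, n = 3), where X23SI4 had 130.2. For Gip there were 34.5 ± 8.79 (SD, n = 4) and 21 ± 1.26 (SD, n = 3) counts per 100 of Chga. Counts of Gcg per count of Pyy were 0.757 ± 0.314 (SD, n = 4) and 1.54 ± 0.408 (SD, n = 3), with X17SI4 at 1.19 and X26SI4 at 1.08, so that the diets overlapped here.

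Cck (ENSMUSG00000032532, chromosome 9 from 121489825 to 121495689, minus strand) encodes cholecystokinin of I cells, which empties the gallbladder and stimulates the exocrine pancreas. It had 3.50, 3.09, 2.94 and 1.48 CPM in normal cys and 2.37, 3.44 and 3.09 CPM in low cys, and all low cys libraries lay within the normal cys range. For Cck it gave a log2 fold change of 0.10 with a wide 95% interval of -0.62 to 0.82 (adjusted p = 0.94 in edgeR), and there were 31 to 68 counts per library. Sct (ENSMUSG00000038580, chromosome 7 from 141278331 to 141279133, minus strand) encodes secretin of S cells, which drives bicarbonate secretion. It had 37.5, 35.5, 47.1 and 61.4 CPM in normal cys and 33.1, 41.6 and 33.8 CPM in low cys. Both highest values were normal cys libraries, X1SI4 and SI9, while X17SI4 and X32SI4 lay within the low cys range. The log2 fold change of Sct was -0.33 (standard error 0.201, 95% interval -0.78 to 0.13, adjusted p = 0.794 in edgeR; exact permutation test, two-sided, p = 0.286).

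Tph1 (ENSMUSG00000040046, chromosome 7 from 46647130 to 46672537, minus strand) encodes tryptophan hydroxylase 1, the rate-limiting enzyme of serotonin synthesis in enterochromaffin cells. It had 2.61, 2.36, 2.16 and 3.97 CPM in normal cys and 2.45, 1.37 and 3.03 CPM in low cys, and the diets overlapped. Tph1 had a log2 fold change of -0.27 (95% interval -1.03 to 0.49, adjusted p = 0.848 in edgeR). The lowest library, X26SI4, had 22 counts, for which the exact Poisson interval is 13.8 to 33.3 counts, and the coefficient of variation was 29.4% in normal cys and 36.7% in low cys. Mast cells can also express Tph1, and their genes are given with the other cell types.

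The granins Chga and Chgb encode chromogranin A and B, acidic proteins that pack hormones into the dense-core granules of enteroendocrine cells. Chga (ENSMUSG00000021194, chromosome 12 from 102554969 to 102565027, plus strand) had 53.1, 44.1, 55.2 and 31.9 CPM in normal cys and 32.4, 39.3 and 52.1 CPM in low cys, and both diets covered nearly the same range. Its log2 fold change was -0.16 (standard error 0.221, 95% interval -0.66 to 0.34, adjusted p = 0.858 in edgeR). Chgb (ENSMUSG00000027350, chromosome 2 from 132781278 to 132795079, plus strand) had 26.4, 25.8, 30.1 and 29.7 CPM in normal cys and 30.9, 23.6 and 36.0 CPM in low cys. It was the steadiest of the 10 genes among the normal cys libraries, with a coefficient of variation of 7.8%, and the low cys libraries lay on both sides of them. The log2 fold change of Chgb was 0.11 with a 95% interval of -0.24 to 0.46 (adjusted p = 0.862 in edgeR).

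Neurod1 (ENSMUSG00000034701, chromosome 2 from 79452521 to 79456751, minus strand) encodes a basic helix-loop-helix factor that acts after Neurog3 in enteroendocrine differentiation. It had 3.08, 2.13, 3.21 and 4.01 CPM in normal cys and 2.45, 2.19 and 2.51 CPM in low cys. The low cys libraries lay close together, above X32SI4 and below the other 3 normal cys libraries. Neurod1 had a log2 fold change of -0.37 (standard error 0.269, 95% interval -0.98 to 0.24, adjusted p = 0.798 in edgeR). Exons of Cerkl, a gene on the same strand with at most 16 counts in any library, overlap those of Neurod1, so its 35 to 84 counts per library carry that uncertainty. A second gene, AL928696.1 on the other strand, overlaps Neurod1 and had 0 counts in every library. The other 9 genes had no exon overlap with another gene of the table.

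**Figure D3:**
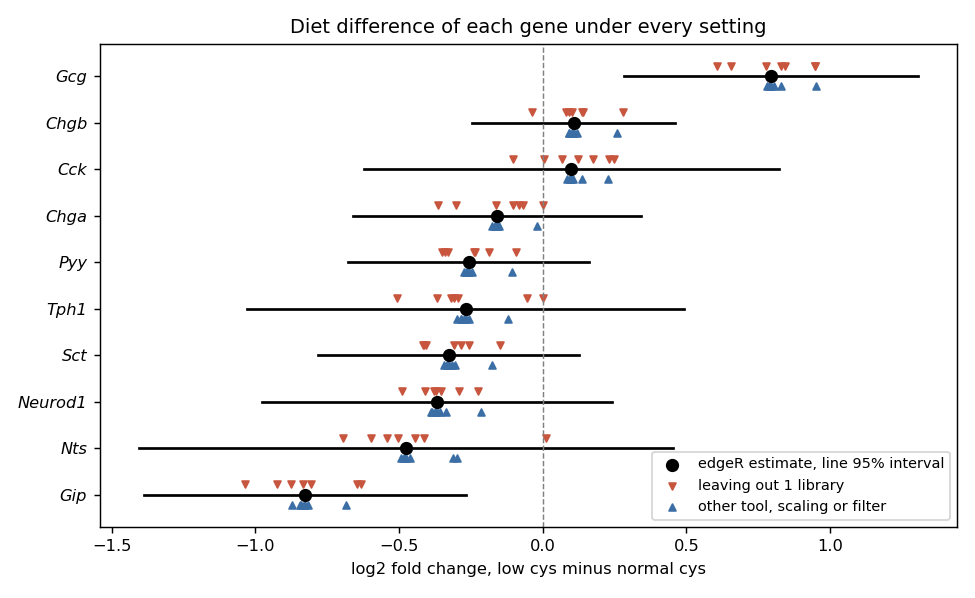
Log2 fold change of each gene, low cys minus normal cys (horizontal axis). Black points are the edgeR estimates with 95% intervals, red triangles the estimates with 1 library left out and blue triangles those with another tool, scaling or filter. Only Gcg (0.61 to 0.95 over all settings) and Gip (-1.03 to -0.63) have intervals that exclude 0.

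Compared per length, as CPM per kilobase of exon, Sct and Nts led the list with means over all libraries of 77.6 and 77.5, and their ranges overlapped in both diets. Pyy followed with 39.4, then Chga with 23.4, Gip with 18.3 and Gcg with 17, Chgb with 10.6, Cck with 4.15, Neurod1 with 1.03 and Tph1 with 0.696. In the normal cys libraries Gip stood above Gcg without overlap, at 17.7 to 30.6 against 8.95 to 16.8. In the low cys libraries the order was turned, with Gip at 9.27 to 16.0 and Gcg at 18.2 to 28.3 per kilobase. Nts and Pyy, Chga and Gip, and Gcg and Chgb overlapped in normal cys and stood apart in low cys, while Pyy and Chga stood apart in normal cys and overlapped in low cys. Neurod1 and Tph1 did not differ beyond their spread in either diet, while Cck stood apart from its neighbors on both sides in both diets.

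**Figure D4:**
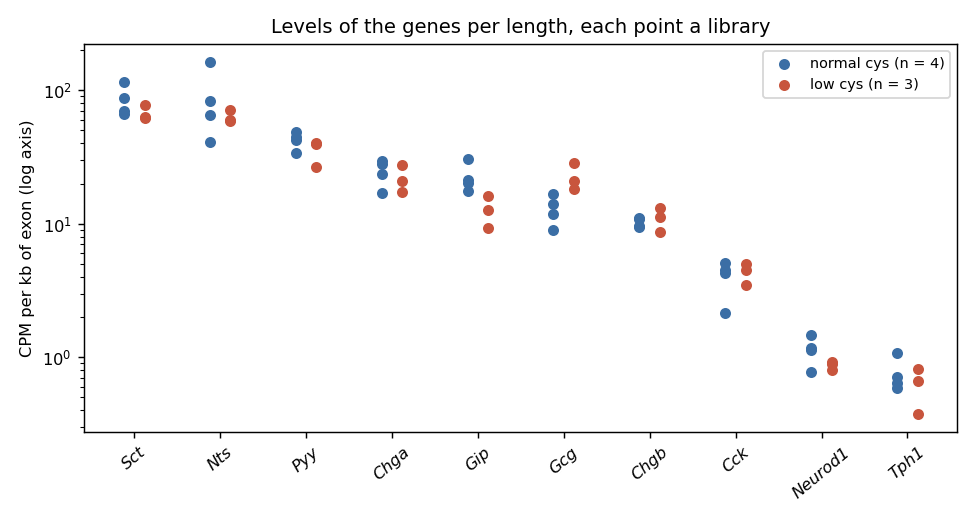
Level of each gene per length, in CPM per kilobase of exon on a log axis, each point a library (normal cys blue, low cys red), ordered by the mean over all 7 libraries. Levels fall from 77.6 for Sct to 0.696 for Tph1, and Gip and Gcg change places between the diets.

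The share of counts on the 10 genes together differed between the diets by less than the spread between libraries. There were between 4040 and 8015 counts on them per library, or 0.0253%, 0.0227%, 0.0277% and 0.0358% of all counts in normal cys and 0.0275%, 0.0261% and 0.0271% in low cys. The mean share was 0.0279% ± 0.00563 (SD, n = 4) in normal cys and 0.0269% ± 0.000741 (SD, n = 3) in low cys. The difference, low cys minus normal cys, was -0.000976 percentage points, and it was 0.00165 without X1SI4 and -0.00269 without X32SI4. As sums of CPM, the 10 genes had 293.2 ± 69.5 (SD, n = 4) in normal cys and 254.2 ± 7.17 (SD, n = 3) in low cys. The highest share was that of X1SI4, in which Nts alone made up 50.3% of the counts on the 10 genes, against 22% to 32.6% in the other 6 libraries. Over the 7 libraries, no correlation of Chga with the other 9 genes passed the test. Pearson's r of log2 CPM lay between -0.50 for Pyy and 0.72 for Cck, and 0 of 9 correlations had an adjusted p under 0.05 (permutation tests over all pairings, smallest adjusted p = 0.368). The r with Cck had an unadjusted permutation p of 0.0409 and a Spearman's rho of 0.54 (permutation p = 0.236). Without X1SI4 and X23SI4, the 2 libraries farthest from the median of Chga, r was 0.87 for Neurod1, 0.74 for Tph1, 0.69 for Chgb, 0.61 for Gip, 0.33 for Nts, 0.07 for Sct, 0.05 for Gcg, -0.31 for Pyy and -0.39 for Cck. These 2 libraries thus turned the sign for Cck, Neurod1, Tph1, Nts and Sct. As deviations from the diet means, the r with Cck was 0.81, and 0.78 without the 2 farthest libraries, which were then X1SI4 and X10SI4 (permutation tests over all 7, adjusted p = 0.173).

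Promoters of Gcg and Gip, from 250 bases before to 50 bases after the start in RefSeq (GRCm38.p6), are printed because these genes separated the diets, with E-boxes in capitals (CANNTG, the motif bound by basic helix-loop-helix factors, the class of Neurod1).
Gcg promoter, chr2:62483604-62483903, minus strand: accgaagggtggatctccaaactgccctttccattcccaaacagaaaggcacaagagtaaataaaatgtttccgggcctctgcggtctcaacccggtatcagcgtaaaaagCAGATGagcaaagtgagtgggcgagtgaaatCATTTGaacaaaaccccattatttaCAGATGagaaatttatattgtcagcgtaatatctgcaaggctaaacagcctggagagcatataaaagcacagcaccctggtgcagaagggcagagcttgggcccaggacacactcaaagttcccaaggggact
Gip promoter, chr11:96024295-96024594, plus strand: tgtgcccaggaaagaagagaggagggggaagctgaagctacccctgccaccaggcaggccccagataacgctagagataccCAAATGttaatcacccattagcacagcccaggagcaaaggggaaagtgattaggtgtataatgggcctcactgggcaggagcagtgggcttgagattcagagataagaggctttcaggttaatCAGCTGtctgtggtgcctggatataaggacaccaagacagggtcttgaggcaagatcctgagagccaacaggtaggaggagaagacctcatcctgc
The Gcg window held 3 E-boxes and the Gip window 2, and 72.3% of the 32851 promoter windows in the table held at least 1. Both strands were searched. GATA occurred 2 times in the Gcg and 4 times in the Gip window (at least once in 57.9% of all windows), and TAAT, a homeodomain core, 2 and 5 times (58.0% of all windows). TATAAA occurred 2 times for Gcg and 0 times for Gip (13.6% of all windows), and TGACGTCA, the cAMP response element, in neither (1.79%). None of the E-boxes overlapped another of these motifs, while 1 pair of the other matches in Gcg overlapped. These are letter matches, and binding was not measured.

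Because the diets differed in cystine, the cysteine codons of the 10 genes were counted in the longest complete coding sequence of each. Gcg had 0 in 180 codons, Chgb 2 in 677, Chga 3 in 463 and Pyy 1 in 100. Gip had 2 in 144, Sct 2 in 139, Neurod1 6 in 357, Tph1 10 in 447, Nts 4 in 169 and Cck 5 in 134. Per 100 codons this was 0 for Gcg, 0.295 for Chgb and 0.648 for Chga at the low end and 3.73 for Cck at the high end, beside a median of 2.13 over 21522 genes. A relation between these shares and the diet differences was not tested.

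Other genes of the pathway were read from lists drawn up by function. Of 10 further hormone genes, 4 were tested, and 0 had an unadjusted p under 0.05 in edgeR. Somatostatin (Sst), the inhibitory hormone of D cells, had 15.5, 20.4, 26.9 and 35.3 CPM in normal cys and 20.7, 16.9 and 21.1 in low cys, a log2 fold change of -0.32 (standard error 0.257). Ghrelin (Ghrl), the hunger hormone, had 44 to 77 counts per library and a log2 fold change of 0.15 (standard error 0.221). Gastrin (Gast) had 0 counts in every library, which allows up to 3 counts in each, counting error only.

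Among 23 enteroendocrine transcription factors, 15 were tested and 1 (background 5.49% of all genes) had an unadjusted p under 0.05. This was Sox4, a factor of early secretory and enteroendocrine progenitors, with 7.47 ± 2.52 CPM (SD, n = 3) in low cys and 4.34 ± 0.535 (SD, n = 4) in normal cys, a log2 fold change of 0.77 (edgeR, unadjusted p = 0.0161, adjusted p = 0.794). Low cys library X26SI4, at 4.56 CPM, lay within the normal cys range. Neurog3, the factor that commits progenitors to the enteroendocrine fate, had 1 to 10 counts per library and was not tested. Atoh1, which opens the secretory lineage, and Mlxipl, a carbohydrate-responsive factor, were the most abundant per length and had log2 fold changes of 0.02 each (unadjusted p = 0.931 and 0.921 in edgeR). The median log2 fold change of the 15 was 0.22, beside 0.007 over all genes tested.

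Of 22 genes for granules and prohormone processing, 19 were tested, with a median log2 fold change of -0.03. Pam, which amidates peptide hormones, had 32.9 ± 10.9 CPM (SD, n = 4) in normal cys and 21 ± 4.24 (SD, n = 3) in low cys (log2 fold change -0.64, edgeR unadjusted p = 0.0333, adjusted p = 0.794), with overlap between the diets. It was the only 1 of the 19 with an unadjusted p under 0.05 (background 5.49% of all genes). Pcsk1, the convertase that cuts glucagon-like peptides from proglucagon in L cells, had 97 to 285 counts per library and a log2 fold change of 0.15 (standard error 0.304). Pcsk2, the convertase that cuts glucagon in pancreatic alpha cells, had 0 to 2 counts per library. Cpe, which trims basic residues after the cut, had a log2 fold change of -0.01 (standard error 0.18).

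Of 15 genes for serotonin handling, 9 were tested and 1 (background 5.49% of all genes) had an unadjusted p under 0.05. Gch1, which makes the cofactor of tryptophan hydroxylase, had 25.5 ± 5.81 CPM (SD, n = 4) in normal cys and 18.6 ± 1.21 (SD, n = 3) in low cys (log2 fold change -0.46, edgeR unadjusted p = 0.0358, adjusted p = 0.794), and the diets overlapped. Slc18a1, which loads serotonin into the granules of enterochromaffin cells, had 9.53 ± 0.194 CPM (SD, n = 3) against 9.47 ± 1.29 (SD, n = 4). Maoa, which degrades serotonin, and Qdpr, which recycles the cofactor, were the most abundant per length, with log2 fold changes of -0.27 and -0.16 (unadjusted p = 0.426 and 0.566 in edgeR).

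Of 20 hormone receptors and inactivating peptidases, 4 were tested and 6 had no count in any library. The receptors of the proglucagon peptides and of Gip were near the limit of detection, with 2 to 26 counts per library for Glp1r, 0 to 10 for Glp2r and 4 to 8 for Gipr. Dpp4, the brush border peptidase that inactivates the incretins, had 974.4 ± 105.2 CPM (SD, n = 3) in low cys and 1234 ± 116.2 (SD, n = 4) in normal cys. The diets were without overlap for Dpp4 (log2 fold change -0.34, edgeR unadjusted p = 0.0528, exact permutation test, two-sided, p = 0.0571). Mme, another peptidase that degrades gut peptides, had a log2 fold change of -0.31 (unadjusted p = 0.527 in edgeR).

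Of 22 luminal nutrient sensors and transporters, 11 were tested. Slc15a1, the apical peptide transporter, had 477.0 ± 131.8 CPM (SD, n = 3) in low cys and 789.7 ± 232.3 (SD, n = 4) in normal cys, with overlap between the diets. Its log2 fold change was -0.73 (unadjusted p = 0.0287, adjusted p = 0.794 in edgeR). Slc5a1, the apical glucose transporter, was the most abundant of the list per length, with a log2 fold change of -0.29 (unadjusted p = 0.193 in edgeR).

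**Figure D5:**
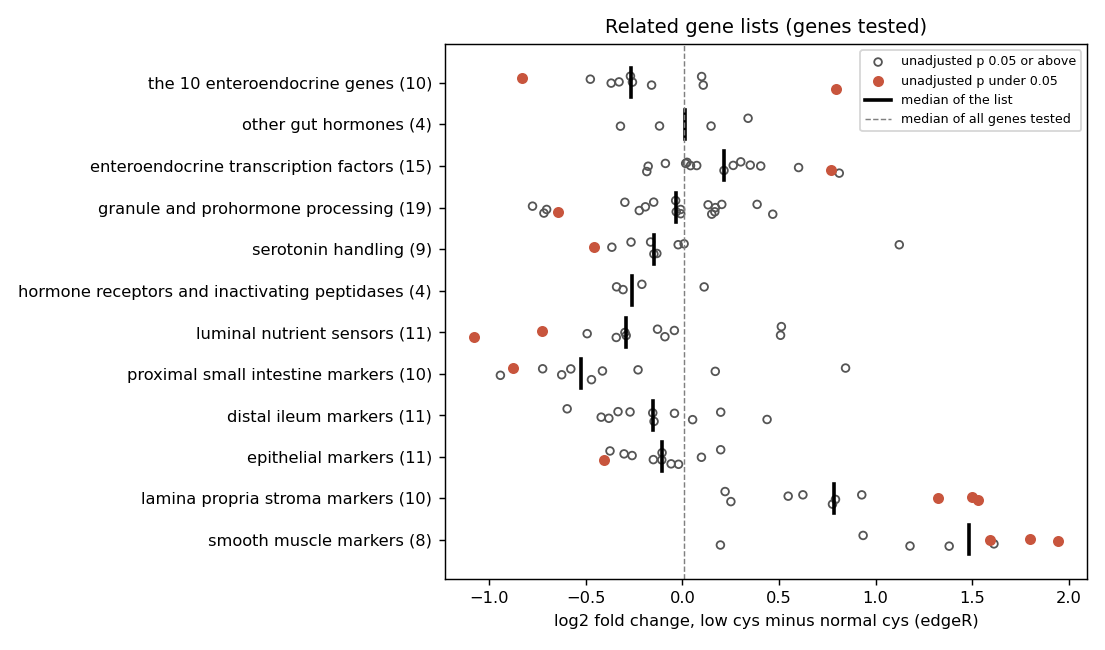
Log2 fold change (low cys minus normal cys, horizontal axis) of every tested gene in the 10 enteroendocrine genes and 11 related lists, with the number tested in parentheses. Open points have an unadjusted p of 0.05 or above and filled points one under 0.05, black bars are list medians and the dashed line is the median of all genes tested (0.007); the stroma and smooth muscle lists lie furthest to the right, with medians of 0.78 and 1.49.

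Markers of other cell types and gut regions were read beside Gcg and Gip, and 0 of them had an adjusted p under 0.05 in edgeR, where 0% of all genes tested did. For the counts of markers at an unadjusted p under 0.05, the background was 5.49% of all genes tested. Stroma markers summed to 29.7 to 38.0 CPM in normal cys and 47.8 to 54.4 in low cys, where 10 of 10 tested genes had a higher estimate and 3 (Col3a1, Col6a1 and Dcn) an unadjusted p under 0.05. Dcn, a collagen-binding proteoglycan, had an adjusted p under 0.05 in DESeq2, and the most abundant of the list per length, Pdgfrb and Vim, had log2 fold changes of 0.22 and 0.25 (edgeR adjusted p = 0.849 and 0.804). Epithelial markers summed to 19060 to 20430 CPM in normal cys and 15790 to 18090 in low cys. Of the 11 tested, 3 (Krt20, Vil1 and Cldn7) were lower in low cys without overlap, against 3.51% of all genes tested. Krt20 had a log2 fold change of -0.41 (unadjusted p = 0.0493 in edgeR) and Krt8 one of -0.11. Smooth muscle markers reached 57.2 CPM in X26SI4, against 9.13 to 28.8 in the other 6 libraries, and 3 of 8 tested genes (Des, Actg2 and Myl9) had an unadjusted p under 0.05, with log2 fold changes of 1.80, 1.95 and 1.59, while Smtn, the most abundant per length, was at 0.20. The part of these cell types in the Gcg and Gip values was not tested. The markers of the proximal small intestine summed to 11900 to 23730 CPM in normal cys and 4797 to 13810 in low cys. The lowest sum was in X23SI4, which also had the highest Gcg and the lowest Gip. X23SI4 was lowest as well in the sums of the distal ileum markers (12900 CPM) and the epithelial markers (15790 CPM). Its low sum was thus not limited to proximal markers. Most of each proximal sum was Fabp2, with 2970 CPM in X23SI4 and 19580 in X1SI4. Fabp2, Rbp2, Fabp1, Lct and Creb3l3 were each lowest in X23SI4. By contrast, Gata4 was lowest in X1SI4 (5.78 CPM) and highest in X17SI4 (38.6), and Slc40a1 was highest in X23SI4 (104.8). In 8 of 10 tested proximal markers the estimate was lower in low cys, and 1, Creb3l3, had an unadjusted p under 0.05 (log2 fold change -0.88, edgeR unadjusted p, 0.0466). Fabp2 and Rbp2, fatty acid and retinol binding proteins and the most abundant of these per length, were at -0.94 and -0.41. Estimates were likewise lower in low cys for 8 of the 11 distal ileum markers and 9 of the 11 epithelial markers. Of the 11 distal ileum markers, all were tested and 0 had an unadjusted p under 0.05, with sums of 13890 to 18360 CPM in normal cys and 12900 to 15680 in low cys, and Fabp6, the ileal bile acid binding protein, and Muc13 at log2 fold changes of -0.42 and -0.04. The part of the regional genes in the Gip and Gcg values was not tested either.

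Markers listed for cell types outside the epithelium that share genes with enteroendocrine cells differed widely in counts. They ran from 0 in every library (Ins1) to 20056 (Erbb3 in X1SI4). The insulin genes Ins1 and Ins2 had 0 counts in all 7 libraries, and 7 of 14 pancreas markers had none. Iapp (islet amyloid polypeptide), listed with the further hormone genes, had 13 to 40 counts per library. An islet part in the Gcg values was not tested. Of the other pancreas markers, Clps had 91 to 590 and Cela1 65 to 108 counts per library, and the remaining 5 had at most 5. Enteric neuron markers summed to 8.86 to 14.3 CPM in normal cys and 6.81 to 13.9 in low cys, of which most was Ret (log2 fold change -0.16), and Chat, which tuft cells also express, was at -1.06 (edgeR unadjusted p = 0.0356, adjusted p = 0.794), while Elavl4 had at most 4 counts per library. Enteric glia markers summed to 517.0 to 980.8 and 595.0 to 679.3 CPM, nearly all of it Erbb3, which epithelium also expresses, and Entpd2, the next, was at a log2 fold change of -0.32, while Sox10 had no count. Mast cell markers summed to 11.6 to 27.9 and 15.2 to 16.1 CPM, with Cma1 and Tpsab1 at 0 in every library and Cpa3 at 1 to 6 counts. Mcpt1 and Kit, the most abundant per length, had log2 fold changes of -1.19 (standard error 0.924) and 0.20. Their part in the Tph1 values was not tested.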

How the data were processed

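Ileal RNA gave 7 libraries, and no pairing, batch or litter is in the labels. Values are counts as the authors deposited them, whole numbers without scaling. By the study's methods, stranded poly(A) libraries read as pairs of 50 bases were trimmed (TrimGalore), cleared of ribosomal reads (SortMeRNA) and mapped with STAR on GRCm38. Exonic reads were then summed per gene by featureCounts, on Ensembl release 70 gene models. Trim Galore, STAR, featureCounts and edgeR are also in the submitters' processing notes. The strand setting and the handling of reads mapping to several places are not given in the sources used here. The table's gene length was used for values per kilobase, as deposited by the authors, and gene positions are those of the deposited table.

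Genes were filtered with filterByExpr (minimum count 10, minimum total 15), given TMM factors, and compared in edgeR 4.0.16 (R 4.3.3) by a robust fit of its quasi-likelihood test (prior count 2, no covariate), with Benjamini-Hochberg adjustment over all genes tested. Standard errors were derived from the log2 fold change and the F statistic. DESeq2 1.42.0, limma-voom (limma 3.58.1), other scalings and filters and leaving out each library were the alternatives. Exact permutation tests of mean CPM used scipy 1.17.1, enumerated every assignment of the libraries to the diets and doubled the smaller tail. The edgeR and DESeq2 tests were checked on simulated counts. There the changed genes were not low in counts and changed by more than any difference reported here. The check therefore does not show how well smaller differences, or those of genes with few counts, are found. The 10 genes and all lists were chosen with earlier results of these data known, so no p-value was adjusted over a list alone. Every one of the 10 genes is named. From each related list, the genes named are those with an unadjusted p under 0.05 (up to 4, by p) and the 2 most abundant per length; some results are not reported here. Ghrl, Neurog3, Pcsk1, Pcsk2, Slc18a1, the receptors and the marker genes named beside a sum were added for their role or after their values were seen. No 2 libraries agreed within sampling noise. The labels do not state that each library is a separate mouse, so p-values measure only the spread between these libraries, which may be technical. Totals of 14888760 to 22412703 counts set the precision of low genes, and intervals on counts cover counting error only.

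Promoters came from RefSeq (GRCm38.p6) and coding sequences from GENCODE M21 (GRCm38), which is the build of the table.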

Additional observations from a re-analysis of the deposited data

How the results depend on the processing

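Gcg kept its positive and Gip its negative sign, each with an unadjusted p under 0.05, with DESeq2, limma-voom, both other scalings, both other filters, the non-robust fit and each of the 7 libraries left out. With 1 library left out, the log2 fold change was 0.61 to 0.95 for Gcg and -1.03 to -0.63 for Gip, and their adjusted p-values over all settings ran from 0.373 to 1.0. The number of the 10 genes with an adjusted p under 0.05 was 0 in every setting run, with 2 genes at an unadjusted p under 0.05 in each, while the share of all genes at that p ran from 1.71% (without X23SI4) to 11.9% (without X17SI4). The number of all genes called was 16 with DESeq2 and 0 to 1 with 1 library left out, the 1 arising without normal cys library X32SI4. The genes without overlap were 2 to 4 of the 10 with 1 library left out, against 9.01% to 19.7% of all genes. The 4 (Chgb and Gcg above, Sct and Gip below) arose without low cys library X26SI4, where 19.7% of all genes were without overlap. The sign turned with 1 library left out for Chga (-0.36 to 0.0005, positive without X23SI4), Chgb (-0.038 to 0.28, negative without X10SI4), Cck (-0.10 to 0.25, negative without X1SI4) and Nts (-0.69 to 0.0099, positive without X1SI4), and none of the 10 signs turned with another tool, scaling or filter. Scaling by library totals alone moved the median of all genes to 0.15, with Gcg at 0.95 and Gip at -0.68, or 0.80 and -0.83 relative to that median. The share of counts on the 10 genes differed between the diets by less than the spread between libraries. Without the 20 highest genes in the total, the mean share was 0.0329% in normal cys and 0.0312% in low cys. The difference was then -0.00166 percentage points, and the spread was not computed for this total. With log2 CPM at a prior count of 0.5, or as deviations from the diet means, 0 of 9 correlations with Chga had an adjusted p under 0.05. No paired analysis was possible because the labels carry no replicate numbers shared by the diets. Counting error limits Tph1, Neurod1 and Cck most, with 22 to 84 counts per library.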

Other observations

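Normal cys library X17SI4 and low cys library X23SI4, from different diets, were both high in further genes linked to enteroendocrine cells, chosen after their values were seen. Tac1, which encodes the substance P precursor of enterochromaffin cells and enteric neurons, had 130 and 138 counts in them and 32 to 56 in the other 5 libraries. Ffar4, the receptor for long-chain fatty acids on L, K and I cells and on other epithelium, had 157 and 205 counts in them and 50 to 87 in the others. In CPM, each of the 2 libraries also had the highest Gcg (25.1 and 42.2) and the lowest Gip (12.2 and 6.37) of its own diet. The likeness of X17SI4 and X23SI4 was not limited to genes linked to enteroendocrine cells. Slc40a1, listed as a proximal marker, had 77.2 and 104.8 CPM in them and 17.35 to 55.4 in the others. Maob, listed for serotonin handling, had 32.2 and 33.2 CPM in them and 84.8 to 133.2 in the others. The cause was not tested, and the labels give nothing that these libraries share.

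Dixon's gap test over the 4 normal cys libraries set none of 13 values apart (0 past its limit). Penk, which encodes enkephalins, had 39 counts in normal cys library X32SI4 and 1 to 6 in the other 6 libraries. Mcpt1 and Mcpt2, proteases of mucosal mast cells, had 262 and 85 counts in X32SI4 and 193 and 50 in SI9, against 12 to 53 and 7 to 21 in the other 5.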
